A study of Homo sapiens with 18 samples.

Results

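The chaperonin TRiC, also called CCT, is a folding machine of the cytosol, and its 8 subunits are encoded by *TCP1*, *CCT2*, *CCT3*, *CCT4*, *CCT5*, *CCT6A*, *CCT7* and *CCT8*. These 8 genes were taken by symbol from the 23399 genes with an expression value, and all 8 were found and tested. The libraries come from U2OS-MycER cells, an osteosarcoma line with a transgene for a fusion of Myc and the estrogen receptor (MycER) that 4-hydroxytamoxifen (OHT) activates. Cells were transfected with a non-targeting siRNA (siCtrl) or with siRNA that silences the cohesin subunit RAD21 (siRAD21), and at the same time received 400 nM OHT or ethanol. RNA was taken after 24 or 48 h. The 8 groups are therefore siCtrl, siCtrl OHT, siRAD21 and siRAD21 OHT at each time, with 3 libraries each for siCtrl and siCtrl OHT at 48 h and 2 for each other group. All groups carry the MycER transgene and passed through transfection, and all are cultures of a single cell line. OHT and ethanol were not given to cells without MycER, so an effect of OHT itself cannot be told apart from that of MycER.

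TRiC is built of stacked rings, and each ring holds every one of the 8 subunits once, in a fixed order. Unfolded proteins enter the chamber, the ring closes over them as ATP is hydrolysed, and they are released folded. Actin and tubulin are the best known clients, and cell cycle proteins such as CDC20 and cyclin E also need TRiC. Prefoldin hands unfolded chains to the chaperonin, and phosducin-like proteins act as its cofactors. On one side of the ring TCP1, CCT2, CCT4 and CCT5 bind ATP tightly, and on the other side CCT3, CCT6A, CCT7 and CCT8 bind it weakly.

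The genes lie apart in the genome. In the GENCODE annotation on GRCh37, *TCP1* spans chr6:160199530-160210735, *CCT2* chr12:69979206-69995350, *CCT3* chr1:156278759-156337664 and *CCT4* chr2:62095220-62115806. *CCT5* spans chr5:10250041-10266501, *CCT6A* chr7:56119378-56131682, *CCT7* chr2:73460548-73480149 and *CCT8* chr21:30428126-30446118. *TCP1*, *CCT3*, *CCT4* and *CCT8* are on the minus strand and the others on the plus strand. The library kit does not keep the strand, so reads of overlapping genes cannot be separated. *TCP1* shares 454 exonic bases with *ACAT2*, which encodes an acetyl-CoA acetyltransferase and runs in the opposite direction. *CCT5* shares 1734 exonic bases with an antisense non-coding RNA, *CCT4* shares 275 and 181 with a pair of them, and *CCT8* shares 85 with one. The annotation holds 14 pseudogenes named after the subunits, of which *CCT6P1* and *CCT6P3* have values of their own, up to 9.70 and 7.27 eRPKM.

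The proximal promoters of 4 genes are shown because they hold the same pair of short motifs, and no relation of these motifs to the levels was tested. RefSeq promoter windows (GRCh38.p14, 250 bases before the start of transcription and 50 after) were matched for 7 of the 8 genes, and *CCT6A* had no entry. In these and in all other promoter windows, the 250 bases before the start were searched on both strands. The 50 bases after it were not searched. A CCAAT box (CCAAT or ATTGG) was found in *TCP1*, *CCT2*, *CCT3* and *CCT8*, in 4 of the 9 windows of the 7 genes, against 32.0% of 35116 promoter windows. A GC box (GGGCGG or CCGCCC) was found in the same 4 genes, in 5 of 9 windows, against 42.6% of windows. The core of a heat shock element (GAANNTTC or TTCNNGAA) was found in *TCP1* and *CCT2*, in 2 of 9 windows, against 11.6% of windows, and CACGTG, the E-box that Myc binds, in 0 of 9 windows against 6.34%. *CCT2* and *CCT4* have 2 windows each. Other start sites of these genes were not searched. The *CCT5* window (chr5:10250287-10250586) appears to lie inside the gene, so its main upstream promoter may not be covered by these counts. The 170 bases before the start are printed for the 4 genes, 5′ to 3′ on the strand of the gene, with motif matches in capitals.
TCP1 (chr6:159789603-159789772, minus strand): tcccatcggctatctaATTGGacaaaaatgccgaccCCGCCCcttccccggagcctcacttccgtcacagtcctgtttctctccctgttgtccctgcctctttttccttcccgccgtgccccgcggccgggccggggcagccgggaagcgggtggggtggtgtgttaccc
CCT2 (chr12:69585289-69585458, plus strand): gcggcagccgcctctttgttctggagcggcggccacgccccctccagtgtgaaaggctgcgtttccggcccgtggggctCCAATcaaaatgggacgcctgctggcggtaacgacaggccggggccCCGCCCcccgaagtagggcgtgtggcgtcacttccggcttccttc
CCT3 (chr1:156338293-156338462, minus strand): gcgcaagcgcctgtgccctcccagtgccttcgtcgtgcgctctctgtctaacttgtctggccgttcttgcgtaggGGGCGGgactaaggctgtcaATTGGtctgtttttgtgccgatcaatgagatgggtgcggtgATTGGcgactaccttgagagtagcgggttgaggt
CCT8 (chr21:29073649-29073818, minus strand): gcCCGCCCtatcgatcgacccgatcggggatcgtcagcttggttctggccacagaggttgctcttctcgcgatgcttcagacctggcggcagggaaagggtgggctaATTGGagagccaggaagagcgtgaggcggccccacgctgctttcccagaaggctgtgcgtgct
The CCAAT box of *TCP1* is the ATTGG at position -154 from the start, that of *CCT2* the CCAAT at -91 and that of *CCT8* the ATTGG at -63. *CCT3* holds ATTGG at -75 and at -34. These are matches of letters and carry no measurement of binding.

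Each value is an eRPKM, the exonic reads of a gene per kilobase of transcript, scaled to the mapped reads of the library. A comparison of levels between different genes therefore depends on the exon length used for each gene. The recovered depths were 9647501 to 12678599 reads per library. Exonic reads of the genes whose whole reads were recovered made up 99.83 to 99.86% of the depth. The depth therefore counts reads assigned to exons after duplicate removal, and each value is relative to these reads. Because the authors removed PCR duplicates, at most 1 read could remain per start position and strand, which sets a ceiling of 157.7 to 207.3 eRPKM. The TRiC subunits filled 22.3 to 49.6% of it, so their differences are compressed. The markers *VIM* (104.7 to 129.0 eRPKM), *SPARC*, *COL1A1* and *RUNX2* of bone-derived mesenchymal cells were present, while *COL1A2* and *TWIST1* did not exceed 0.11 eRPKM. The summed level of 7 markers of epithelial, blood, endothelial and glial cells was 5.98 to 7.72 eRPKM without OHT and 9.17 to 15.7 eRPKM with OHT, with *EPCAM* at 2.56 to 12.9 eRPKM, and its part in the results was not tested. *RAD21* fell by 1.92 at 24 h and by 2.99 at 48 h on the log2 scale with siRAD21. The 2 siRAD21 OHT libraries at 48 h differed by less than the sampling noise of their reads (chi-square per gene 0.982 over 12986 genes, with 1.04 to 3.91 for other replicate pairs). They were counted as 1 sample in the means, without an SD, and both entered the fit. The p-values of all comparisons with this group therefore treat them as 2 replicates. The study's methods report 2 biological replicates for RNA-seq, while siCtrl and siCtrl OHT at 48 h have 3 libraries each. No label says which libraries of a group are separate cultures. The p-values measure the spread between libraries, which may in part be technical.

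The 8 subunits were all abundant and lay within a narrow range. Averaged over the 18 libraries, *CCT8* (theta) was at 84.9, *CCT6A* (zeta) at 81.1, *CCT7* (eta) at 79.6 and *CCT4* (delta) at 72.3 eRPKM. *CCT3* (gamma) and *CCT2* (beta) were both at 71.5, *TCP1* (alpha) at 57.3 and *CCT5* (epsilon) at 51.5 eRPKM. The lower end of the order was stable, and *CCT2* exceeded *TCP1* and *TCP1* exceeded *CCT5* in 18 of 18 libraries, as *CCT7* exceeded *CCT4*. Other neighbours changed places, with *CCT8* above *CCT6A* in 16 of 18 libraries, *CCT6A* above *CCT7* in 10 of 18, and *CCT4* above *CCT3* and *CCT3* above *CCT2* in 12 of 18 each. In each library *CCT5* was the lowest, and the highest subunit exceeded it 1.47 to 1.86-fold. This order depends on the exon lengths used. Recovered lengths were 4214 bases for *CCT5* and 3319 for *TCP1*, against 2032 (*CCT7*) to 2664 (*CCT6A*) for the others. Per library *CCT5* had 1882 to 2701 reads and *CCT8* 1700 to 2031. *CCT5* also shares 1734 exonic bases with an antisense RNA. The part of length and overlap in the order was not tested.

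Summed over the 8 subunits, the level was 570 to 605 eRPKM in siCtrl, 489 to 512 in siRAD21, 636 to 680 in siCtrl OHT and 644 to 649 in siRAD21 OHT libraries at 48 h. At 24 h it was 496 to 546, 473 to 479, 539 to 567 and 538 to 574 eRPKM. The siRAD21 libraries had the lowest sums at each time and did not overlap with any other group of that time. The subunits were also least even in siRAD21 cells at 48 h, where their levels varied with a CV of 21.2 and 21.9% across the 8 genes, against 13.1 to 18.6% in the other 16 libraries. This spread of levels was described and not tested.

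The comparison of siRAD21 with siCtrl cells at 48 h asks how the subunits changed with silencing of RAD21 when MycER was not activated. In bulk RNA, fewer cells with a level and a lower level in each cell cannot be told apart, and eRPKM does not measure the total RNA of a cell. All 8 log2 fold changes were below 0, except that *CCT6A* was at 0.01 under quantile normalization. *TCP1*, the subunit after which the family was named, was at 58.4, 59.0 and 54.9 eRPKM in siCtrl and at 43.3 and 45.4 eRPKM in siRAD21 libraries. It fell by 0.37 on the log2 scale (SE 0.045, adjusted p = 9.5e-06, limma), the largest of the 8 changes. *CCT4* was at 76.3, 77.7 and 74.7 eRPKM in siCtrl and at 60.0 and 60.8 in siRAD21 libraries, and fell by 0.33 (SE 0.048, adjusted p = 4.5e-05). *CCT5*, which is mutated in a hereditary sensory neuropathy, was at 53.1, 55.1 and 51.4 against 43.3 and 43.8 eRPKM and fell by 0.29 (adjusted p = 0.00014). For these genes every siRAD21 library lay below every siCtrl library.

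The other subunits fell less. *CCT3* fell by 0.26, *CCT7* by 0.26, *CCT2* by 0.23 and *CCT8* by 0.14 on the log2 scale, with adjusted p-values of 0.00038, 0.0020, 0.00096 and 0.028. *CCT8*, at 91.1, 91.3 and 85.2 eRPKM in siCtrl and 80.1 and 81.4 in siRAD21 libraries, is the member nearest the ceiling. Its decrease passed in 28 of 33 alternative settings, and missed the threshold without either siRAD21 replicate or without siCtrl replicate 1 or 2, all at 48 h, and under quantile normalization, where it was -0.027 (adjusted p = 0.29). *CCT6A* was at 82.3, 84.3 and 79.6 against 73.1 and 79.0 eRPKM, and its difference of -0.11 did not pass the test (adjusted p = 0.097, 95% interval -0.22 to 0.01). By side of the ring, the subunits that bind ATP tightly were at -0.37, -0.33, -0.29 and -0.23 on the log2 scale. Those that bind it weakly were at -0.26, -0.26, -0.14 and -0.11, so the sides overlapped. With the duplicate removal undone *CCT2* was at -0.28, and *CCT3* and *CCT7* of the other side were at -0.31 and -0.32. A difference between the sides was not tested.

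Thus 7 of 8 subunits passed an adjusted p of 0.05 downwards, as 30.5% of the 14993 genes tested did, and 0 of 8 were DEGs (adjusted p below 0.05 and log2 fold change past 0.5), against 23.7% of genes. The 8 subunits had a median log2 fold change of -0.26, and all genes tested one of -0.01. Here and below, the genes set beside the subunits were not matched to them in abundance. Only 1079 genes had a higher mean share of the ceiling than *CCT5*, the lowest subunit. In all 8, the siRAD21 and siCtrl libraries did not overlap, which held in the same direction for 36.7% of genes. Under quantile normalization the median of the 8 shrank to -0.12, and with the duplicate removal undone it was -0.32. *ACAT2*, which overlaps *TCP1*, fell by 0.74 (adjusted p = 3.6e-07), from 18.7 to 21.1 eRPKM in siCtrl to 11.6 and 11.7 in siRAD21 libraries, and the part of shared reads in the change of *TCP1* was not tested.

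At 24 h the same comparison gave smaller differences. All 8 were below 0 (median -0.13, all genes 0.00), except that *CCT8* was at 0.00 under quantile normalization and that *CCT7* (0.0035) and *CCT8* (0.010) were just above 0 without siCtrl replicate 1. *CCT4* was at 70.7 and 64.5 eRPKM in siCtrl and at 58.7 and 57.4 in siRAD21 libraries, and fell by 0.22 on the log2 scale (SE 0.053, adjusted p = 0.0080). *CCT5* was at 51.4 and 47.6 against 43.8 and 43.3 eRPKM and fell by 0.18 (SE 0.052, adjusted p = 0.018). *TCP1* was at 54.4 and 52.1 against 48.9 and 47.8 eRPKM, a difference of -0.14 that did not pass (adjusted p = 0.055). The 2 that fell compare with 11.8% of genes, and 0 were DEGs, against 8.43% of genes. Libraries did not overlap for 6 subunits, as for 30.9% of genes in that direction, and overlapped for *CCT7* and *CCT8*. The count of 2 became 0 without siCtrl replicate 1 or siRAD21 replicate 2, 1 without siRAD21 replicate 1 and 4 without siCtrl replicate 2, all at 24 h, and 0 when the 2 groups alone entered the fit.

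The effect of siRAD21 at 48 h was set against that at 24 h for each subunit. *TCP1* differed, with a further -0.23 at 48 h (SE 0.067, adjusted p = 0.026), and the other 7 did not pass, with differences between -0.17 for *CCT7* and 0.02 for *CCT6A*. Of all genes, 21.6% passed this test. The difference for *TCP1* lay between -0.27 and -0.19 over 33 alternative settings and passed in 26 of them. It lost the test when each library was centred on the median gene, when the groups compared alone were fitted, and without siCtrl replicate 2 at 24 h, siCtrl replicate 2 at 48 h, siRAD21 replicate 1 or 2 at 24 h, or siRAD21 replicate 1 at 48 h.

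With MycER activated in siCtrl cells, most subunits rose slightly at 48 h. *TCP1* went from 58.4, 59.0 and 54.9 to 66.4, 69.3 and 67.7 eRPKM and rose by 0.24 on the log2 scale (SE 0.041, adjusted p = 0.00021), which is 1.18-fold. *CCT2* went from 74.0, 75.8 and 71.7 to 81.2, 85.5 and 84.2 eRPKM and rose by 0.18 (SE 0.043, adjusted p = 0.0031). *CCT4* also rose by 0.18, *CCT6A* by 0.16, *CCT8* by 0.15, *CCT5* by 0.15 and *CCT7* by 0.14, with adjusted p-values from 0.0035 to 0.039. *CCT3* was at 75.9, 77.2 and 71.8 against 77.9, 83.3 and 80.9 eRPKM, a difference of 0.11 that did not pass (adjusted p = 0.053). In all 8, each siCtrl OHT library lay above each siCtrl library, which held for 27.3% of genes in that direction.

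The 7 subunits that rose compare with 26.1% of genes, and 0 of 8 were DEGs, against 17.9% of genes. The median log2 fold change of the 8 was 0.16 (all genes -0.01), 0.07 under quantile normalization and 0.20 with the duplicate removal undone. With replicates 1 and 2 alone, 3 subunits passed. At 24 h all 8 differences were above 0 (median 0.09, all genes -0.01), from 0.05 for *CCT3* to 0.12 for *TCP1*, though *CCT3*, *CCT6A* and *CCT7* were below 0 without siCtrl replicate 2. With limma 0 of 8 passed, 1 had an unadjusted p below 0.05, and 12.5% of genes passed upwards. The count was 0 with voom on recovered reads, 3 under quantile normalization, and 1 with the duplicate removal undone or with a replicate block that crosses the numbers of siCtrl at 24 h. The effects of OHT in siCtrl cells at 48 and 24 h differed by 0.05 to 0.12 on the log2 scale, and 0 of 8 passed the test of this difference, which 4.17% of genes did.

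In RAD21-depleted cells MycER activation gave larger increases. At 48 h *TCP1* rose from 43.3 and 45.4 eRPKM in siRAD21 to 66.2 and 65.0 in siRAD21 OHT libraries, by 0.56 on the log2 scale or 1.47-fold (SE 0.050, adjusted p = 4.4e-07). It was the only one of the 8 to be a DEG in any comparison, against 28.6% of genes in this one, and under quantile normalization its change was 0.39. *CCT4* rose from 60.0 and 60.8 to 80.2 and 80.5 eRPKM, by 0.41, and *CCT2* from 60.6 and 65.1 to 83.9 and 82.7 eRPKM, by 0.40. *CCT7*, *CCT5*, *CCT6A*, *CCT3* and *CCT8* rose by 0.35, 0.35, 0.33, 0.32 and 0.28 on the log2 scale, with adjusted p-values from 5.1e-05 to 0.00071. All 8 subunits rose, as did 30.5% of genes, and in all 8 the libraries did not overlap, as for 40.7% of genes in that direction. Their median was 0.35 (all genes -0.02), 0.16 under quantile normalization and 0.42 with the duplicate removal undone.

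At 24 h the 8 subunits also rose with OHT in RAD21-depleted cells, by 0.16 (*CCT8*) to 0.27 (*TCP1*) on the log2 scale, with adjusted p-values of 0.00079 to 0.039. *TCP1* went from 48.9 and 47.8 to 56.2 and 60.9 eRPKM and *CCT6A* from 67.7 and 66.7 to 78.0 and 80.7 eRPKM. The count of 8 compares with 16.9% of genes, and 0 were DEGs, against 11.9%. All 8 were without overlap, as were 34.5% of genes in that direction. Without replicate 2 of siRAD21 OHT at 24 h the count fell to 3, and under quantile normalization the median of 0.23 became 0.13.

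**Figure D1:**
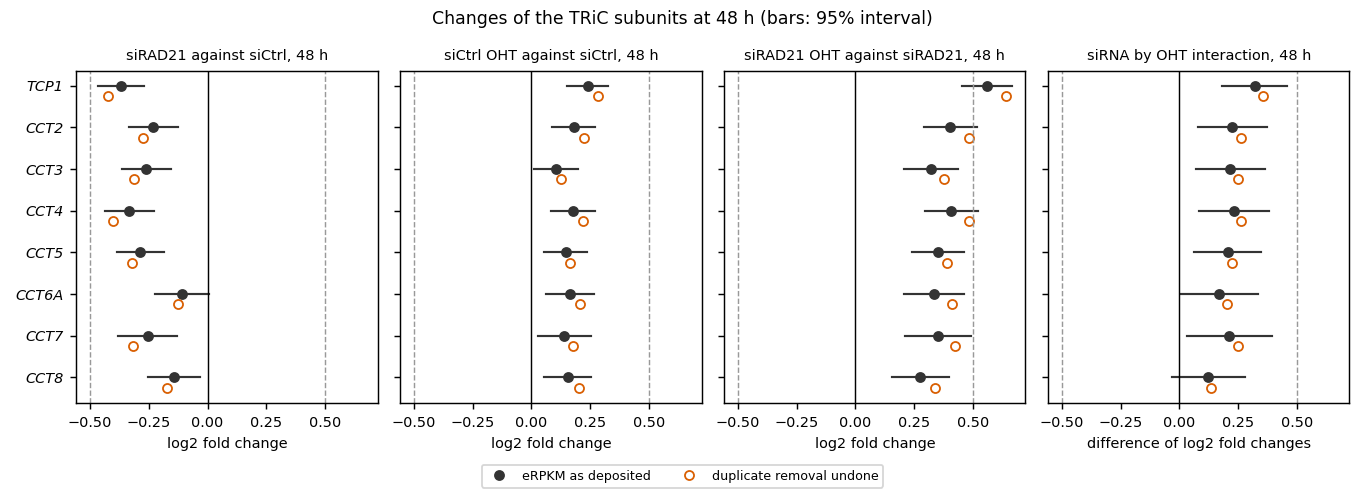
Changes of the 8 TRiC subunits at 48 h in 3 comparisons and their siRNA by OHT interaction (x axis, log2 fold change or difference of log2 fold changes). Filled points are the fit on eRPKM with its 95% interval, open points the same fit with the duplicate removal undone, and dashed lines mark 0.5, the fold change limit for a DEG. *TCP1* in siRAD21 OHT against siRAD21 cells, at 0.56, is the filled point beyond a dashed line.

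The interaction tests whether OHT acted differently in siRAD21 and siCtrl cells. At 48 h all 8 interaction terms were above 0 (median 0.21, all genes 0.02). *TCP1* had a term of 0.32 (SE 0.064, adjusted p = 0.0040), from a rise of 0.56 in siRAD21 and of 0.24 in siCtrl cells, and it passed in 33 of 33 alternative settings. *CCT4* and *CCT2* had terms of 0.23 (adjusted p = 0.032 and 0.036) and passed in 23 of 33 settings each. *CCT3* at 0.22 (adjusted p = 0.043) and *CCT5* at 0.20 (adjusted p = 0.049) passed in 18 and 13. *CCT7* at 0.21, *CCT6A* at 0.17 and *CCT8* at 0.12 did not pass, with 95% intervals of 0.03 to 0.39, 0.01 to 0.33 and -0.03 to 0.28. The count of 5 compares with 10% of genes, and 0 were DEGs, against 7.3%. The count was 3 with a replicate block. It was 1, *TCP1*, with the siRAD21 OHT libraries of 48 h averaged into 1 sample, after centring on the median gene or without a variance trend. It also fell to between 1 and 3 without either replicate of siRAD21 or of siRAD21 OHT at 48 h, siCtrl replicate 1 or 2 at 48 h, siCtrl OHT replicate 1 or 3 at 48 h, or either replicate of siRAD21 at 24 h. At 24 h the terms were 0.06 to 0.18 and 0 of 14993 genes passed (limma, likewise 0 of the 8 with voom), although 2 subunits had an unadjusted p below 0.05.

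With OHT in both arms, siRAD21 and siCtrl cells differed little in the subunits. At 48 h *TCP1* was at 66.4, 69.3 and 67.7 eRPKM in siCtrl OHT and 66.2 and 65.0 in siRAD21 OHT libraries, a difference of -0.05 on the log2 scale (95% interval -0.15 to 0.05). Differences ran from -0.10 for *CCT4* (interval -0.20 to 0.00) to 0.06 for *CCT6A* (interval -0.06 to 0.18), with a median of -0.04 and all genes at 0.00. With limma 0 of 8 passed, and 0 had an unadjusted p below 0.05, while 45.2% of genes passed and 16.2% were DEGs. The count was 0 with voom, 1 with the duplicate removal undone and 2 under quantile normalization. At 24 h the differences were -0.07 to 0.05, and again 0 of 8 passed (0 unadjusted), against 20% of genes.

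Cells with both treatments were also compared with cells that had neither. At 48 h *CCT6A* was at 82.3, 84.3 and 79.6 eRPKM in siCtrl and 96.4 and 95.4 in siRAD21 OHT libraries and rose by 0.22 (SE 0.054, adjusted p = 0.0025). *TCP1* rose by 0.19, *CCT2* by 0.17 and *CCT8* by 0.13. *CCT7*, *CCT4*, *CCT5* and *CCT3*, at 0.10, 0.08, 0.06 and 0.06, did not pass. The count of 4 compares with 29.7% of genes, and 0 were DEGs, against 28%. At 24 h the differences were 0.03 to 0.14 and 0 of 8 passed (2 with an unadjusted p below 0.05), against 17.4% of genes upwards, but 5 passed under quantile normalization, 2 with voom, with the duplicate removal undone or with the crossed replicate block, 4 without siCtrl replicate 1 and 2 without siRAD21 OHT replicate 1. These comparisons share groups with those above, and their values are not independent of them.

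The subunits were higher at 48 than at 24 h in untreated siCtrl cells. *CCT8* was at 77.7 and 70.3 eRPKM at 24 h and rose by 0.27 (SE 0.051, adjusted p = 0.00079), *CCT2* rose by 0.22 and *CCT7* by 0.20, and *CCT4*, *CCT3* and *CCT6A* by 0.17, 0.16 and 0.16. *TCP1* at 0.11 and *CCT5* at 0.10 did not pass. The count of 6 compares with 18% of genes, and 0 were DEGs, against 12.4%. The 48 h libraries lay above the 24 h libraries in all 8, as in 24.4% of genes. The 24 h libraries were deeper (10941845 to 12678599 against 9647501 to 10912005 reads), with a lower ceiling. The snoRNA *SNORA15*, which lies in an intron of *CCT6A*, was at 21.6 to 28.2 eRPKM in the 24 h libraries and at 6.20 to 13.2 in the 48 h libraries, while *SNORA29*, which lies within *TCP1*, overlapped between the times (5.66 to 14.7 against 5.71 to 18.5 eRPKM). Culture time and a difference in library preparation cannot be told apart. The count was 2 without siCtrl replicate 2 at 24 h and 2 when these groups alone were fitted, and centring on the median gene moved the median of the 8 from 0.17 to 0.25.

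Over the 8 groups the subunits followed similar profiles. The mean of their centred log2 levels was lowest in siRAD21 cells, at -0.23 at 24 h and -0.17 at 48 h, and highest at 48 h with OHT, at 0.24 in siCtrl OHT and 0.20 in siRAD21 OHT cells. It was -0.10 in siCtrl cells at 24 h, 0.08 at 48 h and -0.01 in both OHT groups at 24 h. *CCT7* was closest to the mean profile of the other 7 genes (r = 0.996 over 8 groups), followed by *CCT2* at 0.989 and *CCT3* at 0.988. *CCT8* (0.904) and *TCP1* (0.917) were least close. By correlation with the mean of all 8, which includes the gene itself, 0 of the genes tested (other subunits counted) were closer than *CCT7*, 3 than *CCT2*, 7 than *CCT3*, 23 than *CCT4*, 91 than *CCT5*, 149 than *CCT6A*, 189 than *TCP1* and 239 than *CCT8*. *TCP1* was the lowest of all 8 in siRAD21 cells at 48 h relative to its own mean, and *CCT8* and *CCT6A* the highest there. Groups share the same libraries for all genes, and these correlations are descriptions.

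**Figure D2:**
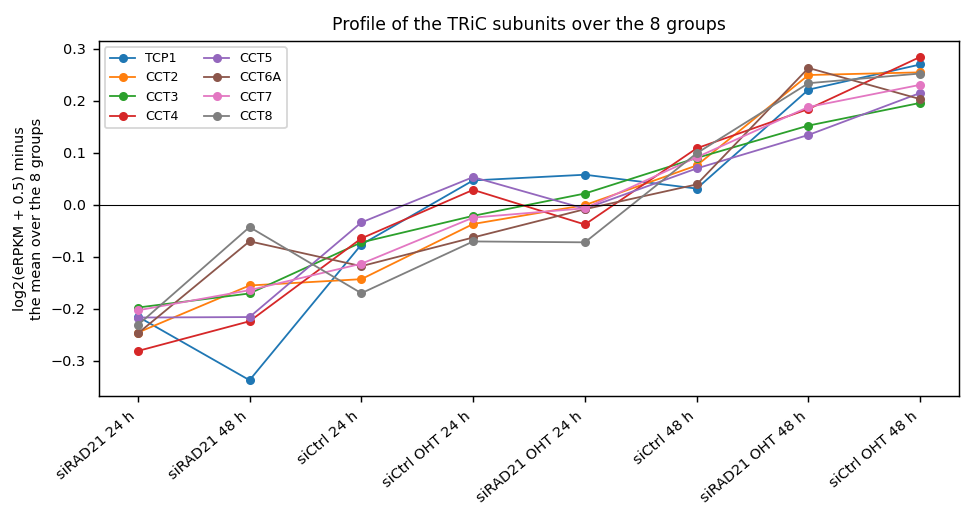
Profile of the 8 TRiC subunits over the 8 groups (x axis, ordered by hand from low to high), as the group mean of log2(eRPKM + 0.5) minus the mean of the gene over the groups. Each line is a subunit, and all 8 are below 0 in both siRAD21 groups without OHT and above 0 in the siCtrl and OHT groups at 48 h.

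Of the other genes tested, 5 were most like the mean profile of the subunits. These were *VDAC2* (r = 0.995), a channel of the outer mitochondrial membrane, *HSPA8* (0.992), the constitutive cytosolic HSP70, *B3GNT5* (0.992), a glycosyltransferase of glycolipid synthesis, *KDELR2* (0.991), a receptor that returns proteins to the endoplasmic reticulum, and *NPM1* (0.991), a nucleolar histone chaperone. Their group means spanned 0.37, 0.33, 0.91, 0.49 and 0.42 on the log2 scale. Among the subunits this range was 0.39 for *CCT3* to 0.61 for *TCP1*.

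Genes that work with TRiC were counted from lists of known partners. Of all genes tested, 57.7% passed in either direction with siRAD21 at 48 h, and 30.5% fell. With OHT at 48 h in siCtrl cells 53.3% passed in either direction, and 26.1% rose. With OHT at 48 h in RAD21-depleted cells these shares were 60.4% and 30.5%. Of 6 prefoldin subunits, which deliver unfolded chains, 3 fell with siRAD21 at 48 h (median -0.20 on the log2 scale). With OHT 5 rose in siCtrl cells (median 0.19) and 5 in RAD21-depleted cells (median 0.30). *PFDN2* was a DEG there, with a rise of 0.59. Of 3 phosducin-like cofactors, *PDCL3* fell by 0.64 at 24 h and by 1.02 at 48 h with siRAD21 (adjusted p = 1.0e-07 at 48 h), and *PDCL* fell by 0.46 at 48 h. *PDCL3* was at 0.12 with OHT in RAD21-depleted cells at 48 h and did not pass there.

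Of 7 genes of the R2TP complex and its prefoldin-like module, which assemble large complexes with HSP90, 5 fell with siRAD21 at 48 h (median -0.25) and 7 rose in RAD21-depleted cells given OHT (median 0.46). *RUVBL1*, an AAA+ ATPase, rose by 0.59 in siCtrl and 0.94 in RAD21-depleted cells, and *RPAP3* fell by 0.62 with siRAD21. Of 19 cytosolic HSP70 and HSP90 chaperones and cochaperones, 14 fell and 1 rose with siRAD21 at 48 h (median -0.19), 14 rose and 1 fell with OHT in siCtrl cells (median 0.18) and 16 rose in RAD21-depleted cells given OHT (median 0.31). The DEGs among them were *FKBP4*, an HSP90 cochaperone, at -0.58 with siRAD21 and 0.66 with OHT in RAD21-depleted cells, *DNAJB1* at -0.55 and *CDC37* at 0.53 in these comparisons. The heat shock factor *HSF1* was at 0.03 with siRAD21 at 48 h and did not pass, whereas *HSF2* fell by 0.31.

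The chaperones of other compartments were counted in the same way. All 6 mitochondrial chaperones fell with siRAD21 at 48 h (median -0.25), rose with OHT in siCtrl cells (0.35) and rose in RAD21-depleted cells (0.60). *GRPEL1*, the nucleotide exchange factor of mitochondrial HSP70, rose by 0.77 and 1.02 with OHT in these cells, and *HSPD1*, the mitochondrial chaperonin HSP60, by 0.24 and 0.50. Of 10 chaperones of the endoplasmic reticulum, 8 fell with siRAD21 at 48 h (median -0.19), 2 fell with OHT in siCtrl cells (median -0.04), and 5 rose and 1 fell in RAD21-depleted cells (median 0.13). *SDF2L1* fell by 1.11 with siRAD21 and rose by 0.81 with OHT in RAD21-depleted cells.

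Among 15 actin and tubulin clients, 11 fell and 1 rose with siRAD21 at 48 h (median -0.25). *TUBA4A* fell by 1.42, *TUBB2A* by 1.27, *TUBB2B* by 1.01 and *TUBB3* by 0.68, all DEGs, while *ACTB* was at -0.08 and did not pass. With OHT 2 rose and 3 fell in siCtrl cells (median 0.03), and 6 rose and 3 fell in RAD21-depleted cells (median 0.12), with *TUBB2B* at 1.00 and *TUBB3* at -0.74. Of 11 other clients, 7 fell and 2 rose with siRAD21 at 48 h (median -0.32), among them *CCNE1* (cyclin E) at -0.76, *WRAP53*, a telomerase factor that TRiC folds, at -0.78 and *PPP2R2A*, a regulatory subunit of a protein phosphatase, at -0.52. *CCNE1* rose by 0.89 and *WRAP53* by 0.77 with OHT in RAD21-depleted cells. The 6 tubulin folding cofactors, which take over tubulin from TRiC, had medians of -0.14, 0.01 and 0.21 in these comparisons. Of these, 2 fell with siRAD21 and 3 rose with OHT in RAD21-depleted cells.

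*MKKS*, *BBS10* and *BBS12*, listed as other genes of the chaperonin family, were above 0 with siRAD21 at 48 h. The mitochondrial chaperonin *HSPD1*, counted above with the mitochondrial chaperones, fell. The lowly expressed *CCT6B*, an isoform of the zeta subunit known from testis, was at no more than 1.03 eRPKM and was not tested. Of *MKKS*, *BBS10* and *BBS12*, chaperonin-like proteins that assemble the BBSome of cilia, 2 rose with siRAD21 at 48 h. *BBS12* rose by 1.00 and *MKKS* by 0.23. With OHT in RAD21-depleted cells *BBS12* fell by 0.86 and *MKKS* rose by 0.63.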

How the data were processed

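RNA of 18 U2OS-MycER libraries was depleted of ribosomal RNA, prepared with an unstranded kit and read as 50 bp single ends. Per the labels and the study's methods, the authors trimmed reads, aligned them to hg19 with TopHat2 2.0.8, removed PCR duplicates and deposited RPKM values over exons (eRPKM). SAMtools and featureCounts 1.4.5 are also in the submitters' processing notes, and the exon annotation is not given in the sources used here. Groups came from the labels.

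Values were tested as log2(eRPKM + 0.5) in limma 3.58.1 (R 4.3.3). The fit held all 18 libraries and 1 mean per group, with a variance trend. Genes with a mean of at least 1 eRPKM (14993) were tested in 15 comparisons, with Benjamini-Hochberg adjustment. "Passed", "rose" and "fell" mean an adjusted p below 0.05, and a DEG also has a log2 fold change past 0.5. The authors used DESeq2 on counts, which were not used here. Whole reads were recovered for 22022 of 23399 genes (94.1%, tolerance 0.01 reads), which gave the depths. To undo duplicate removal, values were raised to the reads that would fill the observed share of start positions. This assumes an even use of start positions, and the depth of each library was not raised to match.

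Genes named are the subunits, RAD21, MYC, DEGs of the lists of partners, and the 5 genes of most alike profile. ACAT2, the snoRNAs, pseudogenes and list examples that were not DEGs were added after values were seen. The members and lists were chosen with earlier results of these data known. At 48 h same-numbered siCtrl and siCtrl OHT libraries deviated together weakly (r = 0.258, 0.130 and 0.157). For siRAD21 and siCtrl libraries at 48 h r was 0.099 and 0.146. The replicate numbers may therefore pair libraries, which the main fit ignored and the replicate block took up. Alternatives covered the pseudocount, filter, scaling, libraries fitted, replicate block, variance model and fold change threshold. Undoing duplicate removal, voom on recovered reads, crossed numbers and replicates 1 and 2 alone were added after seeing the data. The fit was also run on simulated data with little spread between libraries and an even use of start positions. That run could not show how the fit or the undoing of duplicate removal behaves where these do not hold. Tables and figures were made in Python 3.11.15 with numpy 2.4.6, pandas 2.3.3 and matplotlib 3.10.9.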

Additional observations from a re-analysis of the deposited data

Results flagged for a closer look

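At 48 h the effect of OHT differed between siRAD21 and siCtrl cells for 5 TRiC subunits by the interaction test (limma). Of all genes tested, 10% passed this test upwards. The difference of log2 fold changes was 0.32 for *TCP1*, 0.23 for *CCT4*, 0.23 for *CCT2*, 0.22 for *CCT3* and 0.20 for *CCT5*, with OHT raising the level more in siRAD21 cells each time. The count was 1, *TCP1*, with the siRAD21 OHT libraries of 48 h averaged into 1 sample, after centring on the median gene or without a variance trend. For each of these genes the libraries with OHT lay above those without it, in siRAD21 and in siCtrl cells alike. The same held for all 8 subunits, and in that direction for 40.7% of genes in siRAD21 and 27.3% in siCtrl cells.

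The effect of siRAD21 on *TCP1* differed between 48 and 24 h, by -0.23 on the log2 scale. No group of 4 to 10 libraries was available to look for single libraries that stand apart.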

How the results depend on the processing

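All counts are of the 8 subunits with an adjusted p below 0.05 unless stated. Without a fold change threshold, DEGs would number 2 and 7 for siRAD21 at 24 and 48 h, 7 for OHT at 48 h in siCtrl cells, 8 for OHT in RAD21-depleted cells at each time, 4 for both treatments at 48 h, 5 for the interaction at 48 h, 6 for culture time and 1 for the effect of siRAD21 at 48 minus 24 h. The 1 DEG became 0 under quantile normalization and at a threshold of 1. Quantile normalization gave 3 for OHT at 24 h in siCtrl cells, 1 and 2 for siRAD21 under OHT at 24 and 48 h, and 5 for both treatments at 24 h. That last count was 2 with a pseudocount of 0.1, with genes of at least 5 eRPKM, with the duplicate removal undone and with voom, and 1 with a replicate block. The duplicate removal undone gave 1 for OHT at 24 h in siCtrl cells and 1 for siRAD21 at 48 h under OHT. The interaction at 48 h gave 3 with all genes above 0, with the replicate block and with replicates 1 and 2 alone, and 1 when centred on the median, without a variance trend or with the siRAD21 OHT libraries averaged. OHT at 48 h in siCtrl cells gave 3 with replicates 1 and 2 alone. Fitting only the groups compared gave 0 for siRAD21 at 24 h, 2 for culture time and 0 for the effect of siRAD21 at 48 minus 24 h, which was also 0 when centred. Crossing the siCtrl numbers at 24 h in the block, where deviations correlated at -0.13, gave 4 for siRAD21 at 24 h, 1 for OHT in siCtrl cells and 2 for both treatments. The replicate block changed no other count by over 1.5 times.

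Leaving out each library gave 0 to 4 for siRAD21 at 24 h, 3 to 8 for OHT in RAD21-depleted cells at 24 h, 0 to 4 for both treatments at 24 h, 1 to 5 for the interaction at 48 h, 2 to 7 for culture time and 0 to 2 for the effect of siRAD21 at 48 minus 24 h. Where leaving out a library left 1 in a group, that library was assumed to vary like the other groups.

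Single values that changed sign were small on the log2 scale. Quantile normalization gave 8.9e-05 for *CCT8* with siRAD21 at 24 h, 0.014 for *CCT6A* with siRAD21 at 48 h, 0.0058 for both *CCT2* and *CCT8* with siRAD21 under OHT at 48 h, -0.013 for *CCT4* and -0.00907 for *CCT5* with both treatments at 24 h, and -0.020, -0.011 and -0.0054 for *CCT3*, *CCT4* and *CCT5* with both at 48 h. Over the libraries left out, values ran from -0.18 to 0.0035 for *CCT7* and -0.13 to 0.010 for *CCT8* with siRAD21 at 24 h, from -0.013 to 0.11 for *CCT3*, -0.029 to 0.14 for *CCT6A* and -0.0044 to 0.18 for *CCT7* with OHT at 24 h in siCtrl cells, from -0.039 to 0.092 for *CCT4* and -0.029 to 0.082 for *CCT5* with both treatments at 24 h, from -0.026 to 0.011 for *CCT2* and -0.053 to 0.0052 for *CCT8* with siRAD21 under OHT at 48 h, and from -0.064 to 0.10 for *CCT6A* in the effect of siRAD21 at 48 minus 24 h. With replicates 1 and 2 alone, *CCT2* was at 1.8e-05 with siRAD21 under OHT at 48 h and *CCT6A* at -0.0015 in the effect of siRAD21 at 48 minus 24 h. The cause of these changes was not tested. Duplicate removal and depth limit the size of the changes, and with 2 libraries in most groups small differences rest on a shared estimate of the spread.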

Other observations

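*MYC* itself, whose reads may come from the endogenous gene or from the coding part of the transgene, was at -0.25 with siRAD21 at 24 h (adjusted p = 0.015, limma) and at 0.12 at 48 h (adjusted p = 0.11). With OHT at 48 h it fell by 0.22 in siCtrl and by 0.72 in RAD21-depleted cells. In the same comparisons at 48 h the TRiC subunits had medians of -0.26, 0.16 and 0.35.

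The snoRNA *SNORA20*, which overlaps *TCP1*, was at 34.5 to 52.0 eRPKM in the 24 h libraries and at 11.2 to 35.3 in the 48 h libraries. It shares 12 exonic bases with *TCP1*. *SNORA29*, which shares 140, overlapped between the times, at 5.66 to 14.7 and 5.71 to 18.5 eRPKM. Its mean was 6.02 eRPKM in siRAD21 and 13.5 in siRAD21 OHT cells at 24 h, and 9.79 and 15.1 at 48 h, and the part of its reads in the level of *TCP1* was not tested.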
